A study of Homo sapiens with 16 samples.

Results

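The replication-dependent histone genes encode the linker histone H1 and the core histones H2A, H2B, H3 and H4 that package newly copied DNA. They sit in clusters on chromosomes 6 and 1, and their symbols in the deposited table start with HIST1H to HIST4H. Of 73 such symbols that are not named as pseudogenes, 62 had a TPM above 0 in at least 3 of 16 libraries and are described here, out of 26830 entries in all. TPM is a level per gene length with a fixed library total. The other 11 symbols were left out for their low values. Sums cover all 62 genes, of which 43 reached 1 TPM in at least 3 libraries and were tested and 19 did not. A gene that passed this filter only through the group where it was high had to differ, so counts are also given with all 62 genes in the fit.

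Libraries came from NOMO-1, a human acute myeloid leukaemia cell line of monocytic type. Cells grown for 72 h received the solvent DMSO (n = 4), the compound CS1 at 100 nM (n = 3) or the compound CS2 at 500 nM (n = 3); the series presents both compounds as inhibitors of FTO, an RNA demethylase. The labels give only these code names; bisantrene and brequinar are the names known from the published work. A lentivirus delivered an FTO hairpin (shFTO, n = 3) or the hairpin labelled shNS, taken as its control (n = 3), to other NOMO-1 cells, which were kept in 1 µg/ml puromycin for 1 week. The labels name no hairpin in the DMSO and compound groups and no solvent in the hairpin groups. The hairpin cells are described as stable cells chosen by puromycin, and single clones are not mentioned.

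The messages of these genes are made in S phase and, in the textbook case, end in a short stem-loop instead of a poly(A) tail. The stem-loop binding protein SLBP holds this end, the U7 particle with the nuclease CPSF3 cuts it, and the exonuclease ERI1 trims it. NPAT and CASP8AP2 act at the gene clusters to start transcription. Some of the genes also make longer, polyadenylated messages, best known in cells that have stopped dividing. The libraries were made from RNA enriched for poly(A) tails. The values therefore cover polyadenylated forms and the tailless messages that were carried over, and the shares of these forms cannot be told apart here.

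The stem-loop is the end that these messages carry in place of the poly(A) tail, and it is shown for some members named in the results. The histone stem-loop was searched on the sense strand of GENCODE release 29 transcripts (GRCh38). It was found in 29 of the 62 members and in 129 of 57133 genes (0.226%). Many member transcripts in that release stop at the coding end, so a member without a match is only without these letters in its listed transcript. Each window of 26 bases is written as DNA, 5′ to 3′, with the stem-loop of 16 bases in capitals.
HIST1H2AC: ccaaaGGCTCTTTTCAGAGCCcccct
HIST3H2A: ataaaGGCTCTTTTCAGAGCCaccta
HIST2H2BE: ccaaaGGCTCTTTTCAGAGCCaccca
HIST1H2BH: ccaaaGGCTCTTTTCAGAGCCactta
HIST1H2BD: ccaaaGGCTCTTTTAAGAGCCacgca
HIST2H2BC: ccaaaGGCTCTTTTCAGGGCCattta
HIST1H4H: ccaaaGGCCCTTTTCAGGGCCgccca
HIST2H4A: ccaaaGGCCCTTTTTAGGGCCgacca

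The form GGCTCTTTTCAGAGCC was carried by 15 members and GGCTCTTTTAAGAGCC by 4. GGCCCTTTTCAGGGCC was found in 4 members and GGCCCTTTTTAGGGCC in 3, and the rest carried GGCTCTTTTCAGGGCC (2) or GGCTCTTCTCAGAGCC (1). Listed transcripts of 21 members ran at least 100 bases past the stem-loop, and 17 of these held a poly(A) signal hexamer (AATAAA or ATTAAA) in that stretch. In 7 members the listed transcripts ended within 50 bases of it.

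Start regions were taken from RefSeq (GRCh38.p14), from 250 bases before to 50 bases after each start, for the 55 members with an entry. Both strands were searched for TATAAA (the TATA box), for CCAAT (the CCAAT box) and for the octamer of H2B promoters, ATTTGCAT; none of these motifs contains another. Windows of head-to-head neighbours overlap, so a copy can count for both genes. TATAAA was present in 67.3% of the members and in 14% of 27305 genes, CCAAT in 85.5% against 39.7%, and ATTTGCAT in 40% against 2.19%. The octamer was found in 12 of 16 H2B and 9 of 14 H2A genes, in 1 of 11 H3 genes, and in 0 of 5 H1 and 0 of 9 H4 genes. CCAAT was found in 1 of 9 H4 genes and in every matched H1, H2A, H2B and H3 gene. A match describes letters and shows no binding. The 120 bases before the start are printed for members that differed between groups, with motif matches on either strand in capitals. HIST1H2BK lies at chr6:27146859-27146978 (minus strand), HIST1H2BH at chr6:26251494-26251613 (plus), HIST1H1E at chr6:26156209-26156328 (plus), and HIST2H2BE (minus, chr1:149886683-149886802) faces HIST2H2AC (plus, chr1:149886798-149886917).
HIST1H2BK: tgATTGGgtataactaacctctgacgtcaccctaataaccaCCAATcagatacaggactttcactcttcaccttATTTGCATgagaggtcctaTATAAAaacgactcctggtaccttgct
HIST1H2BH: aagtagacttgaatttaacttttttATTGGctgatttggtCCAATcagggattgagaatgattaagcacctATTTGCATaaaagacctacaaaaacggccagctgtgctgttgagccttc
HIST1H1E: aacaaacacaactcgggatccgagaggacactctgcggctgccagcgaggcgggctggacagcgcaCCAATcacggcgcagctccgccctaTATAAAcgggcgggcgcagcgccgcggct
HIST2H2BE: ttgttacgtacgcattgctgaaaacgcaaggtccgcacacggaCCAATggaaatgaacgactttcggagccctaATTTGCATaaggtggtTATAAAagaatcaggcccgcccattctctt
HIST2H2AC: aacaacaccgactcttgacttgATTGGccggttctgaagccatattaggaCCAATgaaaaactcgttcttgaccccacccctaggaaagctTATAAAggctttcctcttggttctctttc

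HIST1H2BK and HIST1H2BH carried the octamer close before the start, whereas HIST1H1E carried CCAAT and TATAAA without it.

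Facts of the whole series were as follows. Depth is unknown because TPM hold no read counts, so no counting interval is given, and replicates are described by the series as biological. FTO fell from between 30.82 and 32.79 TPM in shNS to between 7.49 and 8.35 TPM in shFTO. Myeloid markers (8 genes, among them CD33, SPI1 and LYZ) summed to between 645 and 679 TPM in DMSO. They summed to between 990 and 1004 TPM with CS1, and to between 1097 and 1136 TPM with CS2. Of 7 tested, 6 were higher and 1 lower with each compound, where 37.5% (CS1) and 49.5% (CS2) of all tested entries were higher. The part of this difference in the histone levels was not tested. The summed level was between 3.8 and 9.2 TPM for 5 T and B cell markers, between 0.1 and 1.3 TPM for 4 erythroid markers, of which 2 were at 0 in every library, and between 1.2 and 3.4 TPM for 4 epithelial and fibroblast markers. Ribosomal RNA differed between libraries and is given beside the sums it moves with. Log2 fold changes are limma estimates on log2(TPM + 1), a scale that understates changes of genes with low TPM. Tests were two-sided, Benjamini-Hochberg adjustment covered all 14951 entries tested, and a call is an adjusted p below 0.05. Values after ± are SD.

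The summed histone messages were lower with both compounds, and with the FTO hairpin they overlapped the control. The 62 genes summed to 167.67, 169.11, 172.14 and 153.85 TPM in the DMSO libraries. They summed to 57.84, 55.35 and 58.13 TPM with CS1, and to 42.34, 45.66 and 58.41 TPM with CS2. The highest compound library was far below the lowest DMSO library. The mean sum with CS1 was 34.5% of the DMSO mean and that with CS2 was 29.5%. In these bulk libraries fewer cells in S phase and less histone RNA per cell cannot be told apart. The sums were 169.03, 112.22 and 116.14 TPM in shNS and 122.49, 112.55 and 124.95 TPM in shFTO. The hairpin groups overlapped, and shNS replicate 1 stood alone at the top. Without it the shNS mean moved from 132 ± 31.7 to 114 TPM, below the shFTO mean of 120.0 ± 6.57 TPM; the sums were not tested.

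**Figure D1:**
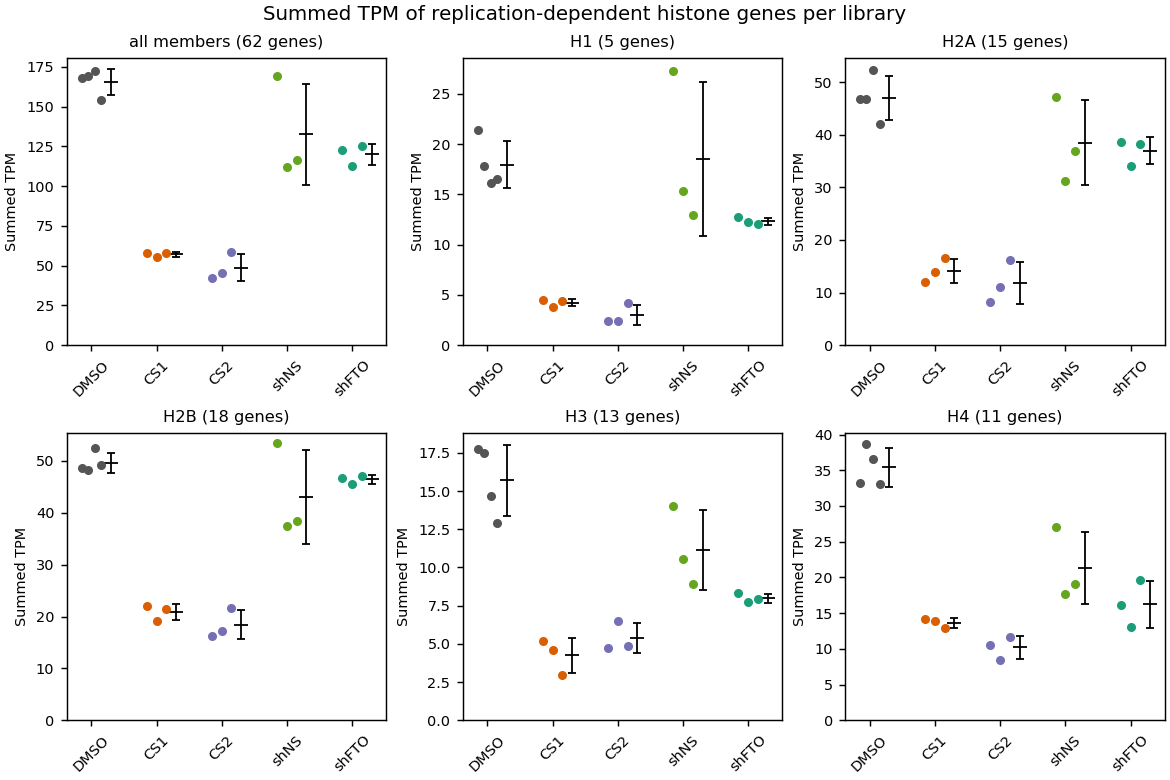
Summed TPM (vertical axis, from 0) of all 62 histone genes and of each class, by group (horizontal axis); points are libraries and the bar beside them is the mean ± SD. In each panel every CS1 and CS2 library lies below every DMSO library, while shNS and shFTO overlap in the panel of all members.

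Every class had a lower sum with the compounds. The H1 sum with CS1 was 23.6% of DMSO, that of H2A 30.1%, of H2B 41.9%, of H3 27.1% and of H4 38.6%. With CS2 these shares were 16.7%, 25.2%, 37.0%, 34.2% and 28.9%. With the FTO hairpin the H1 sum was 66.5% of shNS, H3 71.6% and H4 76.4%, whereas H2A was at 96.2% and H2B at 107.9%. The H2B sum rests in large part on HIST1H2BK and HIST2H2BC. Without these members, a choice made after seeing the data, the H2B sum was 24.8% of DMSO with CS1, 20.4% with CS2 and 85.2% of shNS with the hairpin. By cluster, the HIST1 genes of chromosome 6 summed to 32.7% of DMSO with CS1 and 23.6% with CS2, and the HIST2 genes of chromosome 1 to 39.0% and 44.5%. With the hairpin the HIST1 sum was 83.3% of shNS, the HIST2 sum 102.1% and the HIST3 sum, over 3 genes of low level, 182.9%. The 19 genes that were not tested summed to between 7.38 and 10.21 TPM in DMSO, between 1.82 and 3.12 with CS1 and between 2.37 and 4.07 with CS2. Their sum was thus also lower with the compounds without overlap, though single genes differed. HIST3H3 held between 0 and 0.31 TPM in DMSO and between 0.55 and 1.76 TPM with CS2. The 19 genes summed to between 4.71 and 5.14 TPM in shNS and between 5.67 and 6.57 TPM in shFTO, higher in the latter without overlap.

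Ribosomal RNA, which also lacks a poly(A) tail, moved with the histone sum in part. The 18S entry stood between 9431 and 22888 TPM in DMSO, between 4852 and 7050 with CS1, and between 4779 and 16581 with CS2. In CS2 replicate 3, 18S was at 16581 TPM and the histone sum at 58.41 TPM. In DMSO replicate 4, 18S was at 9431 TPM and the histone sum at 153.85 TPM. The highest shNS values of both 18S (27144 TPM) and histones (169.03) fell in shNS replicate 1. Of 68 tested RNAs without a poly(A) tail outside the histones (rRNA, small nuclear and similar RNAs), 13 were lower and 3 higher with CS1, and 12 lower and 7 higher with CS2. These entries include sets of copies with identical values. With each set counted once, 48 were tested, with 9 lower and 3 higher with CS1 and 8 lower and 7 higher with CS2. Among all tested entries, 14.3% were lower and 37.5% higher with CS1, and 24.6% and 49.5% with CS2. The share of lower calls among these RNAs was near that background with CS1 and below it with CS2. Their share of higher calls was below it with both compounds. The median log2 fold change of the 68 was -0.21 with CS1 (0.09 over all entries) and 0.25 with CS2 (0.20). Mean 18S was 16824 ± 5940 TPM in DMSO, 5788 ± 1135 with CS1 and 9958 ± 6032 with CS2. The histone sum averaged 165.7 ± 8.11, 57.1 ± 1.53 and 48.8 ± 8.48 TPM in the same order. RMRP, the RNA of a ribonuclease, stood between 5.06 and 6.22 TPM in DMSO, between 0.89 and 1.28 with CS1 and between 0.77 and 3.04 with CS2. With the rRNA level as a covariate, an alternative chosen after seeing the data, 23 members were lower with CS1 and 32 with CS2. The share of all entries called in that fit is not given here, so these counts are not read as a trait of the members. Every CS1 library held less 18S than every DMSO library, so this covariate and CS1 cannot be fully separated. The part of RNA selection in these results was not tested otherwise.

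**Figure D2:**
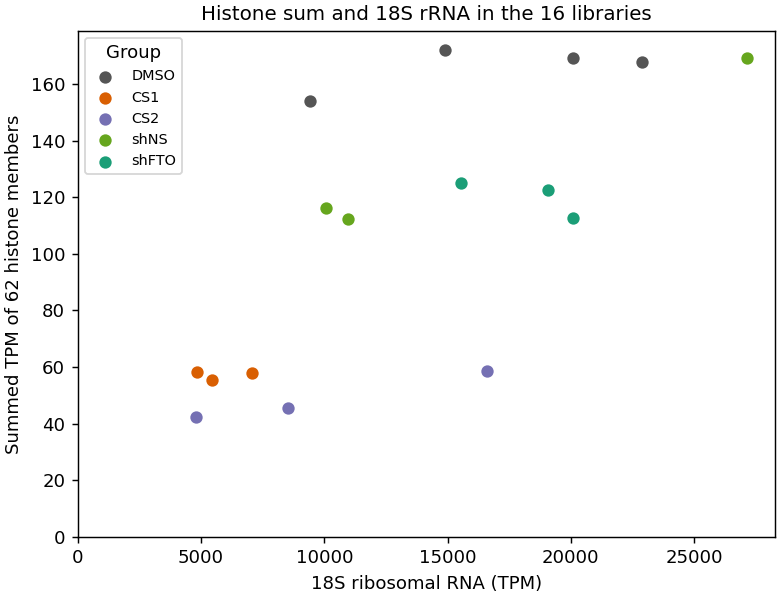
Summed TPM of the 62 histone genes (vertical axis) against 18S ribosomal RNA (TPM, horizontal axis) in the 16 libraries, coloured by group; each point is a library. The compound libraries lie at 58.41 TPM or lower on the vertical axis across 18S levels from 4779 to 16581 TPM.

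With CS1 against DMSO, 32 of the 43 tested members were lower and 0 were higher. Over all tested entries 14.3% were lower and 37.5% higher, 51.8% in either direction. The median log2 fold change of the members was -1.03, against 0.09 for all entries tested. With all 62 members in the fit, 40 were lower and 0 higher, where 10.5% of all entries were lower and 28.5% higher, and the median was -0.81. Of the 32 lower members, all but HIST2H2BC had CS1 libraries that did not overlap DMSO. The share without overlap over all tested entries is not given here, so this is not read as a trait of the members.

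Linker histones bind the DNA between nucleosomes; all 4 tested H1 genes were lower with CS1, and all 4 with CS2. HIST1H1E (histone H1.4) held 7.38, 6.53, 5.96 and 5.30 TPM in DMSO, 0.76, 0.96 and 1.06 TPM with CS1, and 0.96, 0.46 and 1.40 TPM with CS2. Every compound library was below every DMSO library. The log2 fold change was -1.92 with CS1 (SE 0.21, limma adjusted p = 2.41e-06) and -1.93 with CS2 (SE 0.21, limma adjusted p = 6.47e-07). HIST1H1C (histone H1.2), the most abundant H1 message among the members, held 12.03, 9.35, 7.21 and 9.13 TPM in DMSO and 3.36, 2.89 and 2.85 TPM with CS1. With CS2 it held 1.26, 1.36 and 2.38 TPM, below all CS1 libraries. HIST1H1C fell by 1.35 with CS1 and by 1.97 with CS2 on the log2 scale (SE 0.18 each).

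Among the H2A genes, 8 of 11 tested were lower with CS1 and 11 of 11 with CS2. HIST1H2AJ, lower with CS2 but not called with CS1, passed the filter only through DMSO libraries. With all 15 H2A members in the fit, 10 were lower with CS1 and 14 with CS2. HIST2H2AC held 9.39, 8.76, 11 and 7.74 TPM in DMSO; its CS1 libraries held 4.44, 3.08 and 4.09 TPM, and its CS2 libraries 2.70, 1.77 and 1.67 TPM. The 3 groups did not overlap, and HIST2H2AC fell by 1.07 with CS1 and by 1.75 with CS2. HIST1H2AM held between 7.22 and 11.09 TPM in DMSO, between 1.25 and 3.71 with CS1 and between 1.79 and 3.53 with CS2, and was called lower with both compounds. HIST2H2AA3 and HIST2H2AA4 carried the same value in every library, as did HIST2H3A with HIST2H3C and HIST2H4A with HIST2H4B. Such copies are near-identical and the estimates divide reads among them, so the members of a pair are not separate measurements, although counts of genes include both. With each pair counted once, 40 members were tested, and 30 were lower with CS1, 35 lower and 1 higher with CS2, and 10 lower and 5 higher with the hairpin. HIST2H2AA3 held between 6.27 and 7.81 TPM in DMSO, between 1.67 and 2.94 with CS1 and between 1.19 and 3.13 with CS2.

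Of 14 tested H2B genes, 11 were lower with CS1, and with CS2 13 were lower and 1 was higher. With all 18 H2B members in the fit, 12 were lower with CS1, and 14 lower and 1 higher with CS2. The H2B gene with the deepest fall in both comparisons was HIST1H2BH, with 5.02, 8.59, 6.83 and 6.40 TPM in DMSO, 0.74, 0.75 and 1.73 TPM with CS1, and 0.21, 0.45 and 0.39 TPM with CS2. The groups did not overlap. HIST1H2BH fell by 1.91 with CS1 (SE 0.24, limma adjusted p = 8.37e-06) and by 2.50 with CS2 (SE 0.24, limma adjusted p = 1.40e-07). HIST1H2BO and HIST1H2BL, both neighbours of H2A genes on chromosome 6, fell by 1.67 and 1.79 with CS1 and by 1.77 and 1.93 with CS2. HIST1H2BF fell by 1.32 and 1.52, from between 1.59 and 2.89 TPM in DMSO to between 0.18 and 0.51 with CS1 and between 0 and 0.38 with CS2. HIST1H2BC stood between 2.16 and 5.31 TPM in DMSO, between 0.63 and 1.63 with CS1 and between 0.23 and 1.53 with CS2, and HIST1H2BD between 2.40 and 3.04, 0.60 and 1.89, and 1.12 and 1.76 TPM in the same order. Both were called lower with both compounds. With the rRNA covariate HIST1H2BD was not called with CS1 (-0.58) or CS2 (-0.42), nor HIST1H2BC with CS1 (-0.75).

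HIST1H2BK went a different way. This H2B gene (chr6:27146418-27146798, minus strand, GRCh38), known to make a polyadenylated message, had the highest mean TPM over all 16 libraries, though HIST1H4J was higher on average in DMSO and HIST2H2BC with CS2. It held 10.06, 9.70, 9.55 and 9.52 TPM in DMSO, 9.82, 9.23 and 9.02 TPM with CS1, and 4.48, 4.59 and 5.12 TPM with CS2. The CS1 and DMSO libraries overlapped and those of CS2 lay apart from both. The log2 fold change with CS1 was -0.05 (SE 0.062, limma adjusted p = 0.538); it was called lower, at -0.23, after median scaling and at -0.23 after quantile normalization. With CS2 it fell by 0.90 (SE 0.062, limma adjusted p = 3.26e-09). Its share of the histone sum was 5.87% ± 0.283 in DMSO, 16.4% ± 0.771 with CS1 and 9.80% ± 0.934 with CS2.

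**Figure D3:**
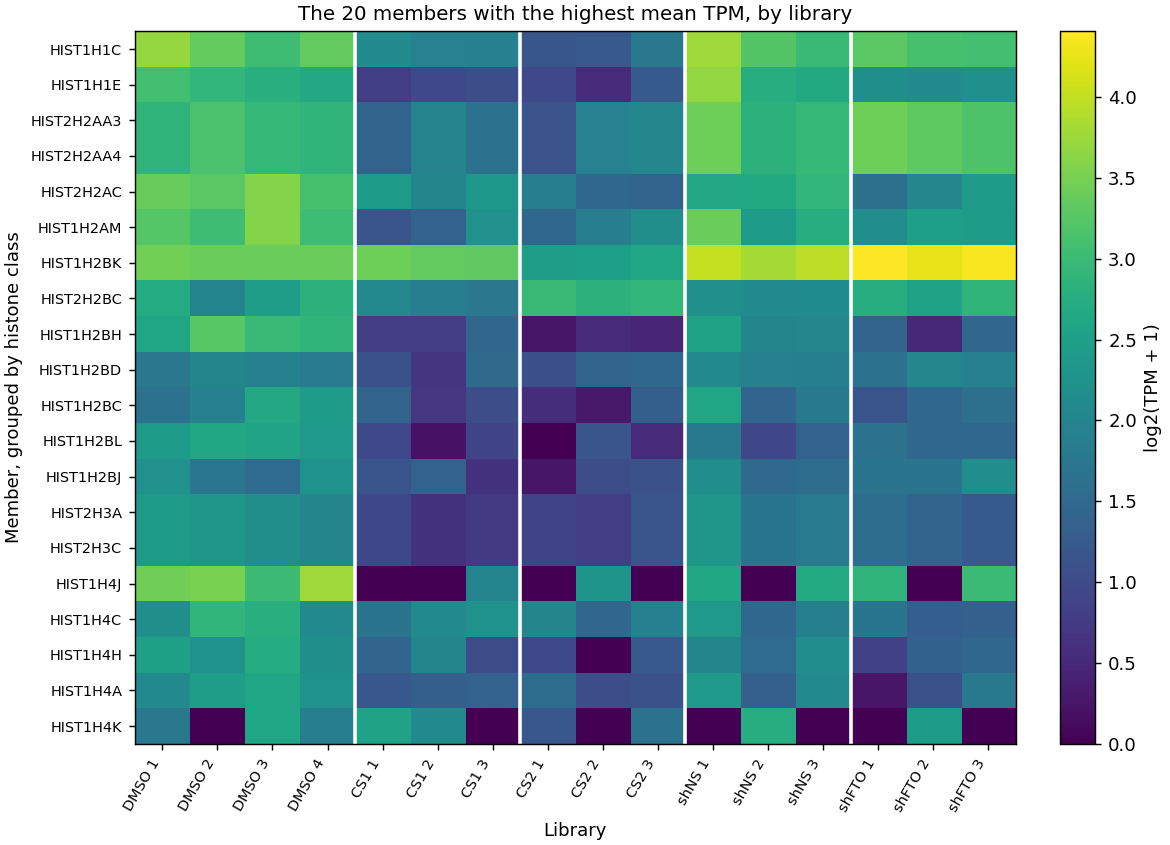
Level on the log2(TPM + 1) scale (colour) of the 20 members with the highest mean over all libraries (rows, ordered by class) in the 16 libraries (columns; white lines divide groups). Most rows darken in the CS1 and CS2 columns, HIST1H2BK stays near its DMSO level with CS1, and HIST1H4J and HIST1H4K alternate between 0 and a level above 0 within groups.

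HIST2H2BC was the member called higher with CS2. It is annotated as a transcribed pseudogene (chr1:149844498-149850937) though its symbol fits the choice of members, and so is HIST2H2BA. HIST2H2BC held 5.56, 2.96, 4.48 and 6.12 TPM in DMSO, 3.20, 2.69 and 2.40 TPM with CS1 and 6.84, 6.11 and 6.52 TPM with CS2. Its level was lower with CS1 (-0.59) and higher with CS2 (0.41). CS1 replicate 1 lay above DMSO replicate 2, and CS2 replicate 2 lay just below DMSO replicate 4, so both comparisons had overlapping groups. The rise with CS2 was not called after median scaling (0.18) or quantile normalization (0.20), nor without DMSO replicate 2 (0.24), DMSO replicate 3 (0.39), CS2 replicate 1 (0.37) or CS2 replicate 3 (0.40).

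Of 5 tested H3 genes, 4 were lower with CS1 and 4 with CS2, or 3 of 4 each with the identical pair counted once. With all 13 H3 members in the fit, 7 were lower with CS1, and 8 lower and 1 (HIST3H3) higher with CS2. HIST2H3A held 4.31, 4.03, 3.53 and 3.02 TPM in DMSO, 0.95, 0.56 and 0.69 TPM with CS1 and 0.86, 0.74 and 1.21 TPM with CS2. HIST2H3A fell by 1.44 with CS1 and by 1.29 with CS2, with no overlap with DMSO. Of the 5, HIST1H3J was not called with either compound. It held between 0.61 and 1.1 TPM in DMSO, between 0.32 and 1.48 with CS1 and between 1.03 and 1.97 with CS2. Its annotated span overlaps that of HIST1H2AM on the same strand.

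Among the H4 genes, 5 of 9 tested were lower with CS1 and 5 of 9 with CS2. With all 11 H4 members in the fit, 7 were lower with each compound. HIST1H4E held 3.68, 5.24, 2.47 and 4.17 TPM in DMSO and 1.28, 0.65 and 0.40 TPM with CS1; it was at 0 in CS2 replicates 1 and 2 and at 0.68 TPM in replicate 3. HIST1H4J and HIST1H4K alternated: in 7 libraries HIST1H4K was listed at 0 while HIST1H4J was not, and in 6 the reverse held. The division of reads between these copies is uncertain, so their sum is given. The sum was 12.32, 10.53, 12.14 and 15.29 TPM in DMSO, 4.80, 3.25 and 2.97 TPM with CS1, and 1.29, 3.85 and 2.18 TPM with CS2. With the pair summed the log2 fold change was -1.55 with CS1 and -2.04 with CS2. HIST1H4C held between 3.24 and 6.45 TPM in DMSO, between 2.25 and 3.81 with CS1 and between 1.73 and 3.00 with CS2; it was not called with CS1 (-0.45, limma adjusted p = 0.127; called at -0.63 after median scaling). It was called with CS2 (-0.69), though not without DMSO replicate 2 (-0.55) or CS2 replicate 2 (-0.51).

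With CS2 against DMSO, 37 of the 43 tested members were lower and 1, HIST2H2BC, was higher, where 24.6% of all tested entries were lower and 49.5% higher (74.1% in either direction). The median was -1.12 against 0.20 for all entries. With all 62 members in the fit, 47 were lower and 2 higher (19.3% and 39.9% of all entries), with a median of -0.89. The 2 were HIST2H2BC and HIST3H3 (0.79), a gene of low level. CS1 and CS2 share the DMSO libraries, so their values are set side by side and their likeness is not a result.

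**Figure D4:**
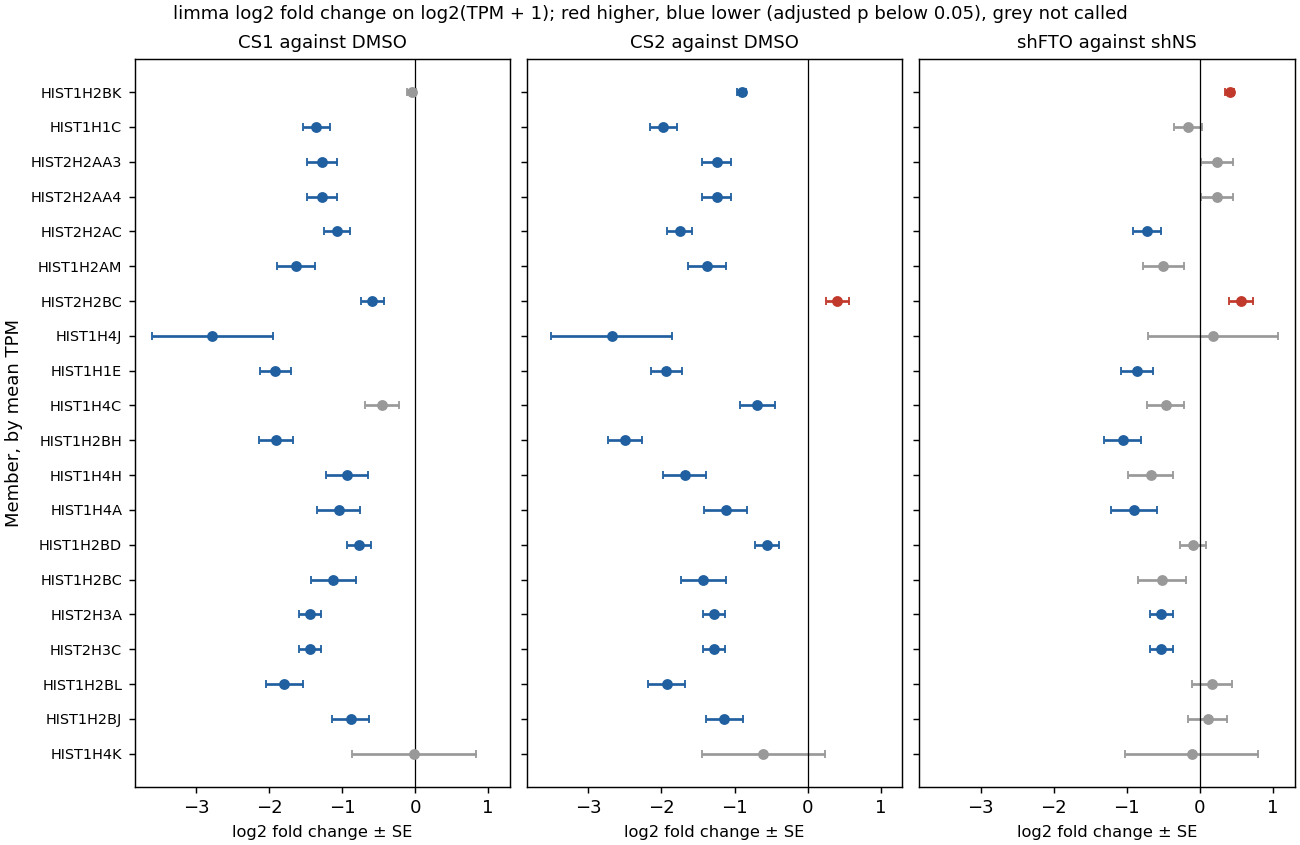
Log2 fold change ± SE on log2(TPM + 1) (horizontal axis) of the 20 most abundant members (vertical axis, by mean TPM) for CS1, CS2 and the FTO hairpin against their controls; red is higher, blue lower and grey not called. Nearly all points of the compound panels lie left of 0, while the hairpin panel has points on both sides.

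The 2 compounds, given at different doses, were also compared with each other. In CS1 against CS2, 4 members were higher and 1 lower (26.2% and 40.4% of all entries tested, 66.6% in either direction), and the median was 0.12 against -0.11. HIST1H2BK was higher with CS1 (0.85, SE 0.066, limma adjusted p = 3.01e-08), as were HIST2H2AC (0.68) and HIST1H1C (0.62; not called without CS2 replicate 1, 0.51). HIST1H4H was called at 0.75 with groups that overlapped, and was not called without CS1 replicate 1 (0.77), CS1 replicate 2 (0.48) or CS2 replicate 2 (0.38). HIST2H2BC was lower with CS1 (-0.997, SE 0.17, limma adjusted p = 8.82e-05). With a pseudocount of 0.1 in place of 1, 9 members were higher and 1 lower. For the members that were not called, no difference was shown, and the doses differ.

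With the FTO hairpin the members split. Against shNS, 5 of 43 were higher and 11 lower, where 31.9% of all tested entries were higher and 24.5% lower (56.4% in either direction). The members' share of lower calls is near that background and their share of higher calls is below it. The median was -0.22 against 0.07. With all 62 members in the fit, 6 were higher and 11 lower (26.2% and 17.6%), with a median of -0.08. The count rests in part on shNS replicate 1: without it 5 members were higher and 5 lower. Other measures moved with the hairpin: the 8 myeloid markers summed to between 831 and 853 TPM in shNS and between 2987 and 3577 TPM in shFTO. Of 7 tested markers, 5 were higher and 2 lower, with a median of 0.30, so the sum does not stand for each marker. 18S ribosomal RNA overlapped (between 10070 and 27144 TPM in shNS, between 15530 and 20077 TPM in shFTO), and of 68 other tailless entries (48 with identical copies counted once) 4 were higher and 3 lower. The part of these measures in the result was not tested beyond the rRNA covariate, with which 5 members were higher and 12 lower. The share of all entries called with that covariate is not given here.

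The 5 higher members were HIST1H2BK, HIST1H2AC, HIST2H2BE, HIST3H2A and HIST2H2BC, that is 3 H2B and 2 H2A genes. HIST1H2BK rose from 15.22, 12.98 and 14.71 TPM in shNS to 20.21, 18.06 and 19.53 TPM in shFTO (log2 fold change 0.41, SE 0.066, limma adjusted p = 9.33e-05), with no overlap. HIST1H2AC (chr6:26124145-26139116, plus strand) rose from 1.38, 0.75 and 1.63 TPM to 3.38, 3.52 and 2.82 TPM (0.93, SE 0.20, limma adjusted p = 0.00104). Every shFTO library was above every shNS library for both genes. HIST2H2BE (chr1:149884459-149886652, minus strand) went from 2.22, 1.1 and 1.47 TPM to 3.52, 3.55 and 2.16 TPM (0.65, limma adjusted p = 0.00702), where shFTO replicate 3 lay below shNS replicate 1.

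HIST3H2A held 2.23, 2.65 and 1.39 TPM in shNS and 5.34, 2.93 and 2.92 TPM in shFTO, without overlap. Its call at 0.60 was lost after median scaling (0.51), after quantile normalization (0.42), and without shNS replicate 3 (0.42) or shFTO replicate 1 (0.37). HIST2H2BC rose from 3.61, 3.35 and 3.44 TPM to 5.72, 4.79 and 6.38 TPM (0.56), and was not called after quantile normalization (0.38). With CS1, HIST1H2AC held 0.42, 0.99 and 0.78 TPM, HIST2H2BE 0.73, 0.43 and 0.62 TPM, and HIST3H2A 0.31, 0.79 and 0.84 TPM; none of these 3 was called against DMSO. All 3 were called lower with CS2.

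**Figure D5:**
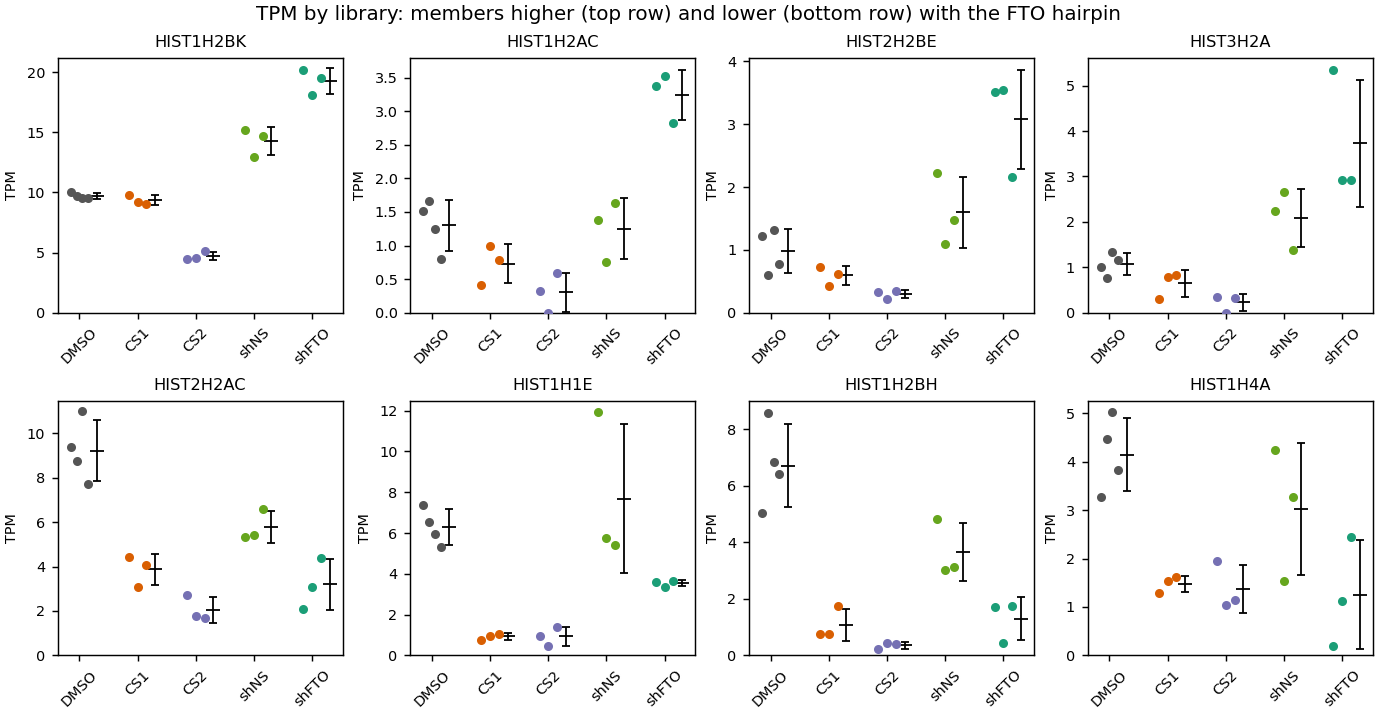
TPM (vertical axis, from 0) of 8 members in the 5 groups (horizontal axis); points are libraries and bars the mean ± SD. In the top row the shFTO libraries are high, with HIST1H2BK above 18 TPM in all 3, and in the bottom row they are lower than most shNS libraries, and the compound libraries lie below DMSO in every panel except the 4 of the top row with CS1, where they overlap it.

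The 11 lower members held 2 H1, 3 H2A, 2 H2B, 3 H3 and 1 H4 gene, where HIST2H3A and HIST2H3C are an identical pair. HIST1H1E went from 11.92, 5.74 and 5.40 TPM in shNS to 3.59, 3.36 and 3.65 TPM in shFTO (-0.86, SE 0.22, limma adjusted p = 0.00423). HIST1H2BH went from 4.82, 3.01 and 3.11 TPM to 1.72, 0.43 and 1.74 TPM (-1.06, SE 0.25, limma adjusted p = 0.00235). HIST2H2AC went from 5.32, 5.43 and 6.59 TPM to 2.09, 3.09 and 4.40 TPM (-0.73, SE 0.19, limma adjusted p = 0.00395). For these 3 genes no shFTO library reached the lowest shNS library. HIST1H3B held 1.18, 1.03 and 0.88 TPM in shNS and 0.46, 0.17 and 0.62 TPM in shFTO (-0.53), and HIST1H2BF 1.47, 1.80 and 1.31 TPM and 1.02, 0.77 and 0.51 TPM (-0.52). Both sets lay apart from their controls. HIST1H4A (4.25, 1.54 and 3.28 TPM against 0.20, 1.13 and 2.44 TPM; -0.90) overlapped and was not called without shNS replicate 1 (-0.68), shNS replicate 3 (-0.82) or shFTO replicate 1 (-0.51). HIST2H3A (-0.53) was not called without shNS replicate 1 (-0.34) or shFTO replicate 3 (-0.44). HIST1H1C, high in both groups, held 12.57, 8.37 and 6.91 TPM in shNS and 8.69, 7.77 and 7.47 TPM in shFTO and was not called; HIST2H2AA3 was also not called (0.24, limma adjusted p = 0.371).

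Annotated transcript ends were set beside the hairpin values, a comparison chosen after the values were seen. All 5 higher members had a listed form that runs at least 100 bases past the stem-loop with a hexamer, or a RefSeq gene span above 1000 bases. So did 3 of the 11 lower members and 9 of the 27 that were not called (2 of 10 and 8 of 25 with identical pairs counted once). The median log2 fold change was -0.09 over the 17 tested members with such a form and -0.31 over the 26 without.

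A list of 8 members for which polyadenylated messages are known from earlier work (HIST1H1C, HIST1H2AC, HIST1H2BC, HIST1H2BD, HIST1H2BK, HIST1H2BJ, HIST2H2BE and HIST1H4H) was read apart from the other 54. With CS1, 5 of 8 were lower and 0 higher (3 lower without CS1 replicate 3, 8 after median scaling, 1 with the rRNA covariate), with CS2 8 were lower, and with the hairpin 3 were higher and 0 lower. The 3 of 8 with the hairpin is close to the 31.9% of all tested entries that were higher. For lower calls, the shares of all tested entries were 14.3% with CS1 and 24.6% with CS2. Their medians were -0.83, -1.02 and 0.01, against -1.07, -1.12 and -0.30 for the 35 other tested members. The list made up 21.2% ± 1.47 of the histone sum in DMSO, 33.5% ± 2.51 with CS1, 22.0% ± 2.15 with CS2, 28.6% ± 1.57 in shNS and 35.1% ± 1.70 in shFTO. HIST1H2BK alone was 11.1% ± 1.88 in shNS and 16.1% ± 0.435 in shFTO.

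Many H2A and H2B genes lie head to head. On GENCODE release 29, 11 pairs of members on opposite strands had starts within 1000 bases, and both members were tested in 10. The pairs hold 21 members, because HIST1H2BO is paired with both HIST1H2AM and the H3 gene HIST1H3J. The pairs are therefore not all separate, and no share over pairs of other genes is given here. This comparison was also chosen after the values were seen. With CS1 both members were lower in 4 of the 10 pairs and exactly 1 was called in 6. With CS2 both were lower in 8, and in 1 pair the members went opposite ways (HIST2H2BC higher, HIST2H2AA4 lower). The 8 include the pairs of HIST1H2AJ and HIST3H2BB, genes that passed the filter only through DMSO libraries. With the hairpin no pair had both members called in the same direction, 2 pairs had members that went opposite ways, 4 had 1 call and 4 had none.

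The first pair with opposite calls was HIST2H2BE and HIST2H2AC, whose starts lie 323 bases apart on chromosome 1: HIST2H2BE was higher (0.65) and HIST2H2AC lower (-0.73). The second was HIST1H2BK and HIST1H2AH, 331 bases apart on chromosome 6. HIST1H2AH held 1.01, 1.68 and 0.72 TPM in shNS and 0.18, 0 and 0.76 TPM in shFTO (-0.72, limma adjusted p = 0.00805), with shFTO replicate 3 above shNS replicate 3. In the pair of HIST1H2BC and HIST1H2AC, 219 bases apart, HIST1H2AC was higher, while HIST1H2BC held 5.05, 1.72 and 2.43 TPM in shNS and 1.22, 1.80 and 2.08 TPM in shFTO and was not called. HIST3H2A and HIST3H2BB, 234 bases apart on chromosome 1, shared this pattern of 1 higher and 1 uncalled member; HIST3H2BB held between 0.18 and 0.21 TPM in shNS and between 0 and 0.54 TPM in shFTO. Strand use in counting is not given in the sources used here, so reads of overlapping genes may be divided wrongly; 5 pairs of members have overlapping spans, none of them among the pairs named in this paragraph.

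The difference between the responses was tested directly, since the compounds and the hairpin have separate controls. In the CS1 response minus the hairpin response, 20 members were lower and 0 higher (18.3% and 31.0% of all entries, 49.4% in either direction). In the CS2 response minus the hairpin response, 23 were lower and 0 higher (23.7% and 39.8%, 63.4% in either direction). HIST2H2AA3 (-1.51 and -1.48), HIST1H2AC (-1.34 and -1.76) and HIST1H2BK (-0.46 and -1.31) were lower in both. With the rRNA level as a covariate the counts were 8 and 14, and the shares of all entries in that fit are not given here. The controls themselves differed: in shNS against DMSO, 3 members were higher and 9 lower (23.0% and 33.6%, 56.6% in either direction), with 2 higher and 5 lower without shNS replicate 2. HIST1H2BK was higher in shNS than in DMSO (0.51). HIST3H2BB was called lower, with between 1.08 and 1.96 TPM in DMSO and between 0.18 and 0.21 TPM in shNS. HIST3H2BB and HIST1H2AJ, which was also called lower, reached 1 TPM only in DMSO libraries and passed the filter through them. Their calls against DMSO are therefore no separate results. With all 62 members in the fit, 3 were higher and 13 lower in shNS against DMSO (median -0.24 against -0.02 for all entries). In that fit the medians of the 2 response differences were -0.68 (CS1) and -0.76 (CS2), against 0.0003 and 0.03.

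Factors that make and process histone messages went up or down by gene. SLBP held between 123.84 and 128.82 TPM in DMSO and between 134.33 and 140.1 TPM with CS1, above every DMSO library but not called. With CS2 it held 232.97, 229.64 and 231.24 TPM, a rise of 0.87 (SE 0.052, limma adjusted p = 6.95e-10). NPAT rose with CS2 from between 13.11 and 15.81 TPM to between 20.76 and 24.64 TPM (0.68), and CASP8AP2 from between 20.08 and 23.85 TPM to between 45.41 and 54.86 TPM (1.22). CPSF3, the nuclease, fell with CS2 from between 124.06 and 139.53 TPM to between 52.93 and 56.35 TPM (-1.25), while ERI1 rose from between 30.37 and 33.02 TPM to between 61.07 and 66.71 TPM (1.00). With the hairpin SLBP fell from 82.77, 87.42 and 84.26 TPM to 58.98, 56.67 and 69.60 TPM (-0.46), NPAT fell (-0.47), CPSF3 fell (-0.67) and ERI1 rose (0.43).

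Over the list of 20 such factors, 12 were higher and 2 lower with CS2 (11 and 7 after median scaling), and 1 higher and 8 lower with the hairpin. Over all tested entries 49.5% were higher with CS2, so the share of this list is not far from it. The shares of all tested entries were 31.9% higher and 24.5% lower with the hairpin, and 37.5% and 14.3% with CS1. With CS1 the split depended on scaling, with 9 higher and 2 lower as deposited and 0 higher and 8 lower after median scaling. These 11 calls also fell to 5 without CS1 replicate 1 or CS1 replicate 2, to 6 without DMSO replicate 2, to 7 without DMSO replicate 3 and to 3 with the rRNA covariate. The list also holds SLIRP, a gene known for binding mitochondrial RNA.

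Histone genes outside the clusters, most of which make messages with ordinary poly(A) tails, gave a mixed picture. Of 9 tested, 4 were higher and 2 lower with CS1 (1 and 4 after median scaling), 5 and 3 with CS2, and 2 and 6 with the hairpin. Among all tested entries, 37.5% were higher and 14.3% lower with CS1, and 49.5% and 24.6% with CS2. With the hairpin these shares were 31.9% and 24.5%. H1F0, the replacement linker histone of resting cells, stood between 87.62 and 105.49 TPM in DMSO, between 46.96 and 52.73 with CS1 and between 15.77 and 20.79 with CS2. The log2 fold change of H1F0 was -0.94 with CS1 and -2.28 with CS2. H1FX also fell, from between 122.51 and 131.66 TPM to between 53.99 and 57.87 TPM with CS1 (-1.17) and to between 93.09 and 99.19 TPM with CS2 (-0.40). With the hairpin H1F0 rose from 132.33, 141.54 and 131.1 TPM to 259.65, 262.87 and 236.99 TPM (0.90), and H1FX rose from between 158.89 and 166.92 TPM to between 231.22 and 290.67 TPM (0.71). H2AFZ, an H2A variant of promoters, fell with the hairpin from between 588.61 and 596.26 TPM to between 309.61 and 372.95 TPM (-0.84).

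Histone chaperones carry new histones to DNA. Of 21 tested, 5 were higher and 4 lower with CS1 (5 and 11 after median scaling, 9 and 5 with the comparison's own groups fitted alone), 13 and 5 with CS2 (9 and 7), and 1 and 13 with the hairpin. Among all tested entries, 37.5% were higher and 14.3% lower with CS1, and 49.5% and 24.6% with CS2. With the hairpin these shares were 31.9% and 24.5%. ASF1B, which hands H3 and H4 to the assembly factors, rose from between 138.24 and 144.61 TPM in DMSO to between 199.94 and 207.44 with CS1 (0.54) and to between 451.79 and 512.26 with CS2 (1.74). With the hairpin it fell from between 132.86 and 135.92 TPM to between 82.41 and 96.06 TPM (-0.61).

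Genes of DNA replication and S phase were read beside the histones, whose messages are made in the same phase. Of 41 tested, 33 were higher and 4 lower with CS2, and 0 were higher and 40 lower with the hairpin. Among all tested entries, 49.5% were higher and 24.6% lower with CS2, and 31.9% and 24.5% with the hairpin. With CS1, 22 were higher and 4 lower, which became 11 and 13 after median scaling. The shares over all tested entries with CS1 were 37.5% higher and 14.3% lower as deposited. CCNE2 (cyclin E2, which acts at the start of S phase) went up from between 48.55 and 49.66 TPM in DMSO to between 94.52 and 113.34 with CS1 (1.07) and to between 257.1 and 262.2 with CS2 (2.38), and fell with the hairpin from between 27.22 and 28.17 to between 13.43 and 20.78 TPM (-0.77). The share of cells in S phase was not measured here.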

How the data were processed

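Poly(A)-enriched RNA of NOMO-1 cells was sequenced in 16 libraries. The deposited values are TPM made by the authors with RSEM 1.2.31 on GRCh38, per the submitters' processing notes. No source used here gives the aligner, annotation or strand setting. RSEM divides reads among near-identical histone copies by estimate, so single copies are uncertain. Depth is unknown.

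Members and gene lists were chosen with earlier results of these data known. The fit took entries reaching 1 TPM in 3 or more libraries (14951; 4338 were 0 in every library) as log2(TPM + 1), with 1 mean per group over all 16 libraries, by limma 3.58.1 in R 4.3.3 (lmFit, eBayes with trend), over 7 comparisons. Replicate numbers were not treated as pairs: same-numbered libraries correlated between -0.00925 and 0.101. Members named are the 20 with the highest mean TPM and up to 6 per direction and comparison with the smallest adjusted p; list genes are up to 5 per comparison by adjusted p, with SLBP, NPAT, CASP8AP2 and FTO. Outside this rule, some entries were chosen after their values were seen. They were HIST1H2AJ, HIST1H3J, HIST1H4E, HIST3H2BB, HIST3H3, HIST2H2BA, HIST2H4A, HIST2H4B and RMRP, H1FX with CS2, and ASF1B and CCNE2 with the hairpin. The test was checked on simulated data. Alternatives covered pseudocount, filter, scaling, groups fitted, replicate block and leaving out each library. Sums and sequences used Python 3.11.15, numpy 2.4.6 and pandas 2.3.3, and plots matplotlib 3.10.9.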

Additional observations from a re-analysis of the deposited data

Results flagged for a closer look

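Among 73 sets of DMSO values examined (4 libraries each), 5 had 1 library far from the other 3 by Dixon's criterion; chance flags about 1 in 20 sets of continuous values, and all 5 genes are at low TPM. HIST1H3H had its lowest DMSO library at 0.31 TPM, where the others held between 0.89 and 0.97 TPM. HIST2H3D had its highest at 1.01 TPM, where the others held between 0.69 and 0.73 TPM. HIST2H2BA, an annotated pseudogene, was at 0.94 TPM in 1 DMSO library and listed at 0 in the other 3. HIST1H3E (0.16 TPM) and HIST1H1A (0.09 TPM) were likewise above 0 in a single DMSO library. These last 3 genes had the other libraries at 0, which meets the criterion by construction, so the rate of 1 in 20 does not apply to them.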

How the results depend on the processing

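Calls on the 7 comparisons were recomputed under every alternative. Leaving out each library gave between 30 and 33 called members for CS1 against DMSO, 35 to 38 for CS2 against DMSO, 10 to 16 for shFTO against shNS, 4 to 7 for CS1 against CS2, 17 to 25 and 19 to 27 for the CS1 and CS2 responses minus the hairpin response, and 7 to 14 for shNS against DMSO. Mean sums moved between 164 and 170 TPM (DMSO), 56.6 and 58.0 (CS1), 44.0 and 52.0 (CS2), 114 and 143 (shNS), and 118 and 124 (shFTO). A pseudocount of 0.1 gave 10 calls for CS1 against CS2 and 4 for shNS against DMSO. With the rRNA level as a covariate, chosen after seeing the data, the response differences gave 8 and 14 calls, HIST1H2BK in CS1 against DMSO turned to 0.063, and the cause was not tested. With the replicate number as a block the counts were 34, 39, 15, 4, 20, 22 and 14, in the order of the comparisons above; no sample pairing is known, and HIST1H4H in CS1 against CS2 lost its call (0.75). With near-identical copies merged, also chosen after seeing the data, 39 members were tested and 30, 36 and 15 were called for CS1, CS2 and the hairpin. Over the genes followed singly, 1327 values kept their call and direction, 44 lost the call, 3 gained it and 1 reversed. Depth is unknown, and levels below 1 TPM are imprecise.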
